A study of Homo sapiens with 4 samples.

Results

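Mesenchymal transition factors and cadherins are described here in the line HCEC 1CT, which was derived from human colon and made immortal by TERT and CDK4. The members are 10 genes chosen by name from the 33538 genes of the count tables: the filament gene VIM, the transcription factor genes ZEB1, ZEB2, TWIST1, TWIST2, SNAI1, SNAI2 and PRRX1, and the cadherin genes CDH2 and CDH11. No rule on measured values was used to choose them, although earlier results of these data were known. All 10 had enough molecules in every library to be compared. Single-cell RNA sequencing was done on cells given either a scrambled hairpin (shScr) or one that targets APC (shAPC), at days 3 and 7. Each of the 4 groups holds 1 library, so differences between groups have no replicate check, and no test was run. Unless a sentence says otherwise, sets of 4 values are given for shScr then shAPC of day 3, followed by shScr then shAPC of day 7, referred to as library order. All 4 groups share the TERT and CDK4 immortalisation, puromycin selection and a medium with epidermal growth factor, hydrocortisone, insulin, transferrin, selenite and low serum, and the methods name a single APC shRNA. The labels call the virus retroviral and the kit v2, whereas the methods call them lentiviral and V3.

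In an epithelial to mesenchymal transition, cells lose E-cadherin junctions and keratin filaments and gain vimentin filaments, N-cadherin and a fibrous matrix. SNAI1, SNAI2, ZEB1, ZEB2, TWIST1, TWIST2 and PRRX1 encode DNA-binding proteins that drive this switch, several of them by repressing CDH1 through its E-boxes. In the colon, these factors are usually found in the stroma and in invading tumour cells, while the epithelium holds them off with GRHL and OVOL factors, the splicing regulators ESRP1 and ESRP2, and the miR-200 microRNAs.

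A unique molecular identifier (UMI) marks 1 captured RNA molecule. UMIs were summed over cells that had no fewer than 200 genes and 500 UMIs and less than 5% of UMIs from mitochondria. This left 5982 of 9205 barcodes, and the share kept was 75.9%, 75.3%, 71.2% and 48.7% in library order. In shAPC day 7 the kept cells held 28451455 of 53948307 UMIs. The libraries kept 788 to 2600 cells and 28451455 to 39797418 UMIs, and shScr day 7 was far shallower per cell, at a median of 1330 UMIs against 21029.5 to 49685.5 in the other libraries. Kept barcodes were shared by 2 libraries in 35 pairs, and without those cells the CDH2 ratio at day 3 was -1.03 and the PRRX1 ratio at day 7 was -0.98. APC, the target, was at 16.1, 5.52, 19.1 and 6.61 CPM (UMIs for every 1000000 of the library) in that order. Its log2 ratio of shAPC to shScr was -1.54 (95% counting interval -1.78 to -1.31) at day 3 and -1.53 (-1.78 to -1.29) at day 7. Every interval given here covers counting error only, not the spread between cultures. The assay tags RNA at the 3′ end, so a level counts molecules and was not divided by gene length.

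The member levels ran over a wide range and stood in a similar order in the 4 libraries. In shScr day 3, VIM led at 5303 CPM, followed by SNAI2 at 71.8 and TWIST2 at 43.9. TWIST1 at 29.0 and ZEB1 at 28.3 came next and their counting intervals overlapped, as did those of CDH11 at 19.5 and ZEB2 at 18.4. CDH2 at 7.69 and PRRX1 at 6.58 also overlapped, and SNAI1 came last at 1.71 CPM. Vimentin transcripts thus outnumbered those of each regulator in every library, and SNAI1 was the lowest of the 10 in every library.

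**Figure D1:**
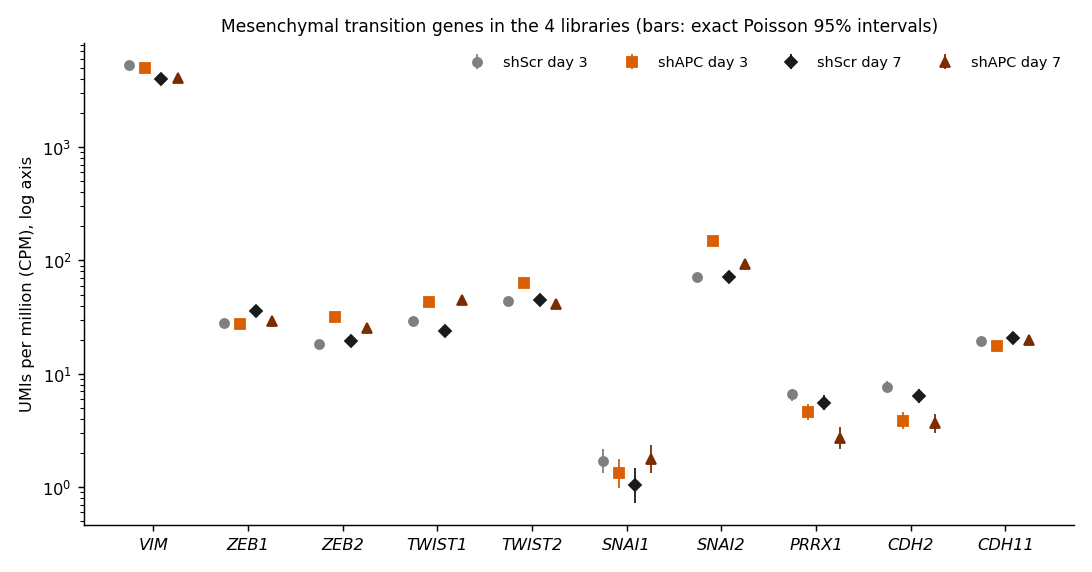
Level of each of the 10 genes in the 4 libraries, in CPM on a log axis; points are libraries and bars are exact Poisson 95% intervals for counting error. VIM sits above 4000 CPM throughout, the 2 shAPC libraries lie below their shScr partners for CDH2 and PRRX1, and above them for SNAI2, TWIST1 and ZEB2.

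The label calls the cells colonic epithelial, and the defining genes of that cell type were largely missing. Of 13 colonic epithelial markers, 8 had 3 or fewer UMIs in every library, among them the adhesion genes EPCAM and CDH1, the keratin KRT20, the intestinal identity factors CDX1 and CDX2, and the mucin MUC2. CDH1, which encodes E-cadherin, had 0, 0, 0 and 1 UMI. EPCAM had 2, 1, 0 and 2 UMIs. A count of 0 allows up to 0.0754, 0.0858, 0.0961 and 0.105 CPM in the 4 libraries, taking 3 counts as the upper limit. What remained of the epithelial set was mainly KRT8, a simple epithelial keratin, at 12.9, 19.4, 9.57 and 15.1 CPM, the tight junction gene CLDN7 at 8.62, 16.9, 7.91 and 6.26, and KRT18, the partner of KRT8, at 4.20, 7.13, 5.16 and 3.02. All 3 were higher in shAPC than in shScr at day 3, when 58.9% of 14505 compared genes had counting intervals above 0. KRT19, a further keratin of the set, was at 3.42, 5.72, 2.34 and 4.57 CPM.

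Genes of the mesenchymal programme were abundant instead. All 10 fibroblast markers had more than 3 UMIs in every library, and their summed level was 3040, 3425, 2217 and 3531 CPM against 29.3, 49.4, 25.1 and 29.2 CPM for the colonic epithelial markers. FN1, which encodes the matrix protein fibronectin, was at 3676, 3268, 3077 and 2758 CPM. COL1A1 and COL1A2 encode the chains of type I collagen. COL1A1 was at 1444, 1519, 927.4 and 1485 CPM and COL1A2 at 626.9, 802.1, 492.2 and 1118 CPM. The fibroblast list shares genes with the matrix genes described further on. Its sum was higher in shAPC than in shScr at both days, and the part of this in the member ratios was not tested. Relative to the median of all compared genes, the median log2 ratio of its 10 genes was -0.27 at day 3 and 0.32 at day 7.

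Markers of other cell types were scarce. The 6 endothelial markers summed to 0.527 to 1.16 CPM, with the defining CDH5 at 0 in every library. The 6 blood markers summed to 17.5 to 30.3 CPM, nearly all of it CD68, a lysosomal gene, while CD3E was at 0 throughout and PTPRC had 0, 0, 0 and 1 UMI. The 6 neural crest and glial markers summed to 0.865 to 1.29 CPM, with SOX10 and S100B at 0. The 6 smooth muscle markers summed to 42.8, 76.1, 40.1 and 56.0 CPM, mostly ACTA2, and were higher in shAPC at both days. The part of these markers in the member ratios was not tested. Since no separate cell type was identified in the libraries, the share of cells that pick up a molecule from free RNA could not be measured.

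**Figure D2:**
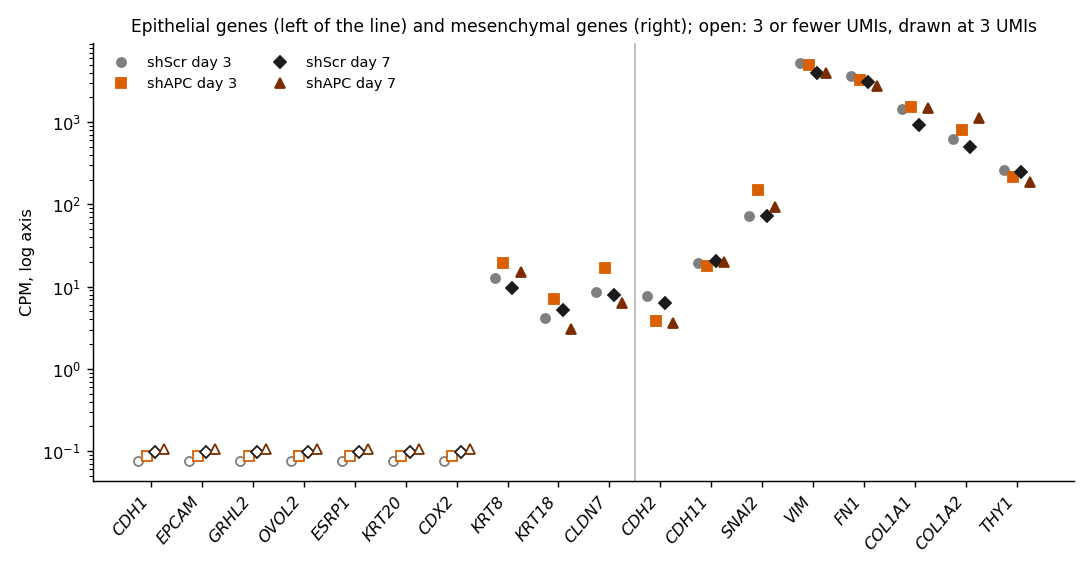
CPM on a log axis for 10 epithelial and 8 mesenchymal genes in the 4 libraries; open symbols have 3 or fewer UMIs and are drawn at the level of 3 UMIs. CDH1, EPCAM, GRHL2, OVOL2, ESRP1, KRT20 and CDX2 lie on this floor in every library, whereas VIM and FN1 lie above 2000 CPM.

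VIM encodes vimentin, the main intermediate filament protein of mesenchymal cells. Its level was 5303, 4968, 4010 and 4018 CPM in library order, from 114331 to 211064 UMIs, which placed it between the 31st and the 53rd most abundant gene. At least 1 VIM molecule was found in 99.6%, 99.0%, 96.7% and 97.7% of kept cells. The day 3 libraries were higher than the day 7 libraries, and the shAPC and shScr libraries of a day lay close together. For day 3 the log2 ratio of shAPC to shScr was -0.09 (-0.10 to -0.09), and for day 7 it was 0.00 (-0.01 to 0.01). That of day 7 to day 3 was -0.40 (-0.41 to -0.39) in shScr and -0.31 (-0.32 to -0.30) in shAPC. Relative to the median of all tested genes, the value in shAPC was 0.00, and that in shScr was -0.45.

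Cells were thinned at random to 5000 UMIs each to compare VIM from cell to cell. This kept 809, 616, 1036 and 994 cells, since shallower cells were left out. The median was 26, 25, 19 and 19 VIM UMIs per cell, and 5% to 95% of cells spanned 13 to 45, 11 to 43, 7 to 35 and 8 to 35. Of these cells only 1, in shScr day 7, had no VIM molecule. The distribution had a single peak in each library, and no set of vimentin-free cells stood apart at this depth. The variance was 3.45, 3.69, 3.85 and 3.46 times the mean, whereas random sampling of equal cells gives a variance about equal to the mean. Among 514 genes seen in most thinned cells of every library, those whose counts followed VIM most closely were ACTG1 (cytoplasmic actin), GAPDH, NPM1, RACK1 and RPS9. The lowest of the 4 Spearman correlations with VIM was 0.24 for ACTG1 and 0.24 for GAPDH, over 616 to 1036 cells that share a library.

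**Figure D3:**
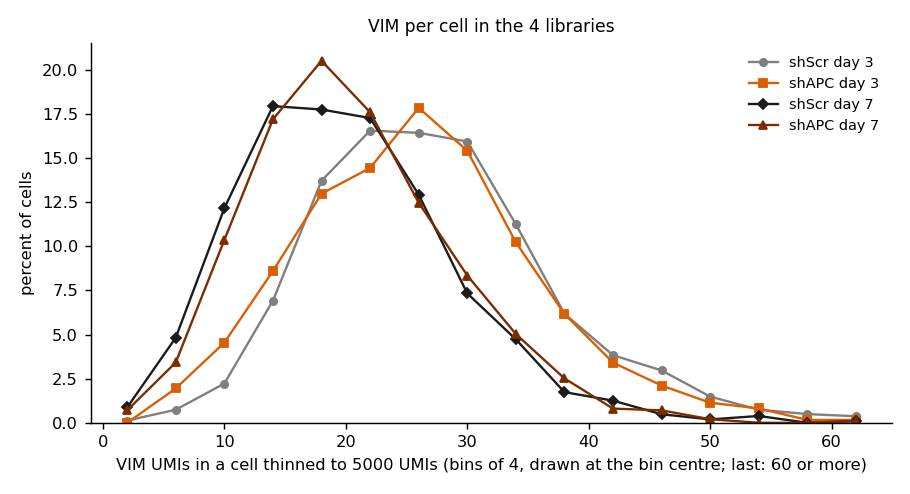
Percent of cells (vertical axis) by VIM UMIs per cell after thinning each cell to 5000 UMIs (horizontal axis, bins of 4 UMIs), 1 line per library. The day 3 libraries have medians of 26 and 25 UMIs and the day 7 libraries of 19 and 19, and every line has 1 peak.

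ZEB1 and ZEB2 encode paired zinc finger repressors of CDH1 that hold the mesenchymal state in a loop with the miR-200 microRNAs, which bind the 3′ untranslated regions (3′UTR) of both transcripts. The mature sequences are shown because this family is the classic brake on both genes. Capitals mark the seed, bases 2 to 8, and the sequences are those of RefSeq on GRCh38.p14. Members are grouped by their shared seed.
miR-200c-3p: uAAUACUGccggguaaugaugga
miR-200b-3p: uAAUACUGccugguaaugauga
miR-429: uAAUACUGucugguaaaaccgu
miR-141-3p: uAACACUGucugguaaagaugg
miR-200a-3p: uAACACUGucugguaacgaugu

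The first 3 differ from the other 2 in their seed. The genes of miR-200c and miR-141 lie within MIR200CHG on chromosome 12 (chr12:6963226-6964447, hg38, plus strand, a long non-coding RNA gene), and those of miR-200b, miR-200a and miR-429 lie together on chromosome 1. MIR200CHG had 0 UMIs in all 4 libraries, under the same upper limits as CDH1. Mature microRNAs are not captured by this assay, so their level is not known here.

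The 3′UTR of the canonical ZEB1 transcript (2543 bases, gene at chr10:31318495-31529814, plus strand) held 9 seed matches, 6 of CAGTATT and 3 of CAGTGTT. That of ZEB2 (5373 bases, gene at chr2:144364364-144521057, minus strand) also held 9, namely 5 of CAGTATT and 4 of CAGTGTT. Of 19539 canonical 3′UTRs, 28.2% held at least 1 such match on the transcript strand and 0.578% held 5 or more. None of 2410 other 3′UTRs within 20% of the length of ZEB1 held as many, and 0.0855% of 1169 did so for ZEB2. SNAI2 and CDH11 held 1 match each, and VIM, TWIST1, TWIST2, SNAI1, PRRX1 and CDH2 held 0. A match is a run of letters and not a measured binding site. One example of each kind per gene is shown on hg38, with the seed match in capitals. The base number is that of the first capital letter, and the lower-case letters before it lie upstream.
ZEB1, from base 372 of its 3′UTR: ttgttttatcttatCAGTATTa
ZEB1, from base 785: aaaatcatcagaatCAGTGTTt
ZEB2, from base 395: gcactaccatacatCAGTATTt
ZEB2, from base 211: gcaaaaattttgtaCAGTGTTa

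ZEB1 was at 28.3, 27.7, 35.7 and 29.5 CPM, with the highest value in shScr day 7. Its log2 ratio of shAPC to shScr was -0.03 (-0.16 to 0.09) at day 3, where the interval holds 0, and 0.33 with the mean over cells of each cell's CPM. At day 7 it was -0.27 (-0.40 to -0.14), a value that turned to 0.10 when that mean replaced the sum. ZEB2 was at 18.4, 31.7, 19.7 and 25.4 CPM, so both shAPC libraries lay above both shScr libraries. The shAPC to shScr ratio on the log2 scale was 0.79 (0.65 to 0.92) for day 3, and for day 7 it was 0.37 (0.22 to 0.53). Whether the 2 genes differ in their response was not tested. In cells thinned to 2000 UMIs, ZEB1 was seen in 8.34%, 6.54%, 7.10% and 5.61% of cells and ZEB2 in 4.00%, 5.35%, 4.09% and 4.88%, with intervals that overlap between shAPC and shScr of the same day for both genes. At 5000 UMIs per cell the ZEB1 shares were 13.0%, 11.0%, 15.3% and 12.9%, again overlapping. Those of ZEB2 were 7.54% (5.82 to 9.58) and 14.6% (11.9 to 17.7) at day 3, and 7.34% (5.82 to 9.10) and 12.2% (10.2 to 14.4) at day 7, and these did not overlap between shScr and shAPC.

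TWIST1 and TWIST2 encode closely related basic helix-loop-helix factors of mesoderm and connective tissue. TWIST1 was at 29.0, 42.6, 23.8 and 45.1 CPM, and both shAPC libraries were above both shScr libraries. Day 3 gave a log2 ratio of 0.55 (0.44 to 0.67), and day 7 gave 0.92 (0.79 to 1.06). The day 7 ratio was higher than that of 94.1% of the 13983 genes with at least 20 UMIs in the 2 libraries, and the day 3 ratio was higher than that of 68.5% of 14505 such genes. TWIST2 was at 43.9, 62.7, 44.6 and 40.9 CPM, so that only shAPC day 3 stood out. Day 3 gave 0.51 (0.42 to 0.60) on the log2 scale, and day 7 gave -0.12 (-0.24 to -0.01). In cells thinned to 5000 UMIs, TWIST1 was seen in 11.5% and 18.8% of shScr and shAPC cells at day 3, and in 10.0% and 19.3% at day 7. For TWIST2 the shares were 20.3% and 24.0% at day 3 and 20.4% and 19.0% at day 7. TWIST2 was the more abundant of the pair in shScr at both days and in shAPC at day 3, and TWIST1 was the more abundant in shAPC at day 7.

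SNAI1 (Snail) and SNAI2 (Slug) encode zinc finger repressors of CDH1. SNAI2 was the most abundant of the 7 factor genes in every library, at 71.8, 149.8, 71.5 and 93.8 CPM from 2232 to 5233 UMIs. The shScr libraries were alike at both days, and both shAPC libraries were higher. For day 3 the log2 ratio was 1.06 (0.99 to 1.13), or 2.09-fold, and for day 7 it was 0.39 (0.31 to 0.47), or 1.31-fold. In cells thinned to 2000 UMIs, SNAI2 was seen in 13.9% (11.7 to 16.3) of shScr and 22.1% (19.1 to 25.5) of shAPC cells at day 3, and in 14.6% (12.7 to 16.7) and 15.5% (13.4 to 17.8) at day 7. The share at this depth thus showed the day 3 difference but not the day 7 difference beyond counting error. At 5000 UMIs per cell it was 31.3% (28.1 to 34.6) in shScr and 42.4% (38.4 to 46.4) in shAPC at day 3. The day 7 shares at 5000 UMIs were 28.4% (25.6 to 31.2) and 33.5% (30.6 to 36.5), with a narrow overlap of the intervals. Without thinning the shares were 63.8%, 76.0%, 32.4% and 56.5%, in cells of unequal depth.

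SNAI2 molecules were also unevenly spread in shAPC day 3. After thinning to 5000 UMIs, 37 of 616 cells there held 3 or more, against 7 of 809 in its shScr partner, and at day 7 in 12 of 1036 shScr and 18 of 994 shAPC cells. In library order its variance was 1.08, 1.49, 1.17 and 1.20 times the mean. One unthinned cell of shAPC day 3 held 86 SNAI2 UMIs. SNAI1 was near the limit of what these libraries can resolve, with 68, 47, 33 and 51 UMIs, or 1.71, 1.34, 1.06 and 1.79 CPM. Its ratios were -0.35 (-0.91 to 0.21) at day 3 and 0.76 (0.10 to 1.44) at day 7, and the day 7 value was 0.07 with the mean of per-cell CPM.

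PRRX1 encodes a homeobox factor of limb and craniofacial mesenchyme and of activated fibroblasts. It was at 6.58, 4.64, 5.57 and 2.74 CPM, from 262, 162, 174 and 78 UMIs. Both shAPC libraries were below both shScr libraries, unlike SNAI2, TWIST1 and ZEB2. Day 3 gave a log2 ratio of -0.51 (-0.80 to -0.22) and day 7 gave -1.02 (-1.43 to -0.63). Its paralogue PRRX2 had 10.7, 11.8, 13.2 and 14.5 CPM and was chosen for mention after its values were seen.

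The 7 factor genes were also set against each other, since a share of their own sum does not depend on how a library is scaled. Together they made up 199.8, 320.4, 201.8 and 239.4 CPM, and the shAPC sums exceeded the shScr sums at both days. Of these sums, SNAI2 alone made up 71.8, 149.8, 71.5 and 93.8 CPM. The median log2 ratio of all tested genes at day 3 was itself 0.35. SNAI2 held 35.9% (34.9 to 37.0) and 46.7% (45.8 to 47.7) of the sum in shScr and shAPC at day 3, and 35.4% (34.2 to 36.6) and 39.2% (38.0 to 40.4) at day 7. TWIST1 held 14.5% and 13.3% at day 3, with overlapping intervals, and 11.8% and 18.9% at day 7. ZEB1 held 14.2% and 8.65% at day 3, and 17.7% and 12.3% at day 7. The TWIST2 shares were 22.0% and 19.6% at day 3, and 22.1% and 17.1% at day 7. PRRX1 held 3.30% and 1.45% at day 3, and 2.76% and 1.15% at day 7. In shAPC the share of SNAI2 was higher, and those of ZEB1, TWIST2 and PRRX1 lower, at both days, with intervals that do not overlap. A higher share of 1 gene lowers the others, so a lower share need not be a lower level. At day 3 the log2 ratio of the level was 0.51 (0.42 to 0.60) for TWIST2 and -0.03 (-0.16 to 0.09) for ZEB1. ZEB2 held 9.19% and 9.88% at day 3, and 9.74% and 10.6% at day 7, with overlapping intervals. In cells thinned to 5000 UMIs, at least 1 of the 7 factors was seen in 61.9%, 76.1%, 60.8% and 67.3% of cells, in library order.

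**Figure D4:**
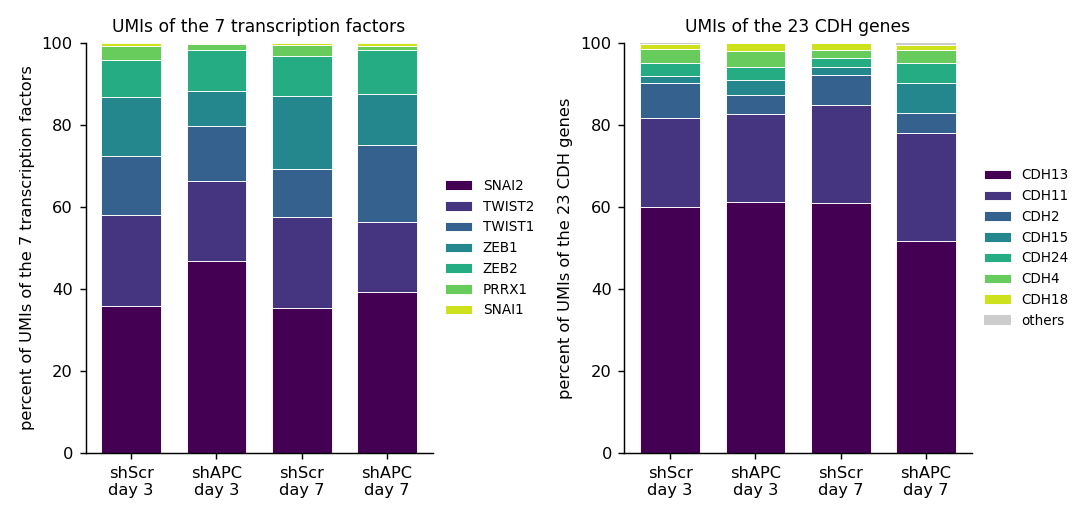
Stacked bars from 0 to 100 percent, 1 bar per library, of the UMIs of the 7 transcription factor genes (left) and of the 23 CDH genes (right). SNAI2 is the largest part on the left, from 35.4% to 46.7%, and CDH13 on the right, from 51.7% to 61.3%, while CDH2 takes 8.51% and 7.41% in shScr against 4.66% and 4.81% in shAPC.

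Cadherins are calcium-dependent adhesion proteins, and a change from E-cadherin to N-cadherin is the hallmark of the mesenchymal switch. CDH2 encodes N-cadherin (chr18:27932879-28177946, hg38, minus strand). It was at 7.69, 3.86, 6.40 and 3.66 CPM, from 306, 135, 200 and 104 UMIs, and both shAPC libraries were below both shScr libraries. For day 3 the log2 ratio of shAPC to shScr was -0.99 (-1.30 to -0.70), for day 7 it was -0.81 (-1.16 to -0.46), and the day 7 value became 0.42 when every cell had equal weight (the mean of per-cell CPM). In cells of at least 2000 UMIs, summed as before, the day 7 ratio was -0.86. Only 0.938% of the tested genes had a lower ratio than CDH2 at day 3, and 4.38% at day 7. At 5000 UMIs per cell, CDH2 was seen in 2.84%, 1.79%, 3.09% and 2.01% of cells, with intervals that overlap within each day.

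CDH11 encodes OB-cadherin, a cadherin of osteoblasts and fibroblasts. It was at 19.5, 17.7, 20.6 and 20.0 CPM, with ratios of -0.14 (-0.30 to 0.01) at day 3 and -0.04 (-0.21 to 0.12) at day 7, and both intervals hold 0. The day 3 value was 0.21 with the mean of per-cell CPM. Its level exceeded that of CDH2 in every library. Over 23 CDH genes, 11 had 0 UMIs in all 4 libraries. CDH13, which encodes the membrane-anchored T-cadherin, was the most abundant at 54.2, 50.8, 52.7 and 39.3 CPM and held 60.0%, 61.3%, 61.0% and 51.7% of all cadherin UMIs. CDH11 held 21.6%, 21.3%, 23.9% and 26.3%. CDH2 held 8.51% (7.62 to 9.47) and 4.66% (3.92 to 5.49) in shScr and shAPC at day 3, and 7.41% (6.45 to 8.47) and 4.81% (3.95 to 5.80) at day 7, so its share of the cadherins was also lower in shAPC at both days. CDH15, the muscle M-cadherin gene, stood at 1.63, 3.15, 1.67 and 5.66 CPM, with ratios of 0.95 (0.49 to 1.41) at day 3 and 1.76 (1.31 to 2.24) at day 7. CDH24 had 2.84, 2.52, 1.76 and 3.59 CPM.

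Over all members, the ratios of shAPC to shScr did not share a direction. At day 3, 1 of 10 members was at least 2-fold higher (SNAI2), against 10.3% of all 14505 tested genes, and 0 were at least 2-fold lower, against 0.91%. The counting interval lay above 0 for 4 members (ZEB2, TWIST1, TWIST2 and SNAI2) against 58.9% of genes, and below 0 for 3 (VIM, PRRX1 and CDH2) against 8.67%. The median ratio of the members was -0.06 and that of all tested genes was 0.35. Relative to that gene median, SNAI2 was at 0.71, ZEB2 at 0.43, TWIST1 at 0.20 and TWIST2 at 0.16. Below the gene median, ZEB1 was at -0.38, VIM at -0.45, CDH11 at -0.49, SNAI1 at -0.70, PRRX1 at -0.86 and CDH2 at -1.34. On this relative scale 0 members were at least 2-fold higher, against 5.26% of genes, and 1 was at least 2-fold lower (CDH2), against 2.41%. The 2 scales thus place ZEB1, VIM and CDH11 differently, near 0 on the first and under the middle gene on the second.

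At day 7 the median of all 13983 tested genes was 0.00, so both scales gave the same values. None of the members was at least 2-fold higher, against 5.11% of genes, and 1 was at least 2-fold lower (PRRX1), against 2.67%. The interval lay above 0 for 4 members (ZEB2, TWIST1, SNAI1 and SNAI2) against 23.7% of genes, and below 0 for 4 (ZEB1, TWIST2, PRRX1 and CDH2) against 27.2%. The member median was -0.02. ZEB2, TWIST1 and SNAI2 were above 0 at both days and PRRX1 and CDH2 below 0 at both days by these intervals. The 2 days use different libraries, with none shared. The share of all genes whose intervals lie on the same side of 0 at both days was not counted.

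**Figure D5:**
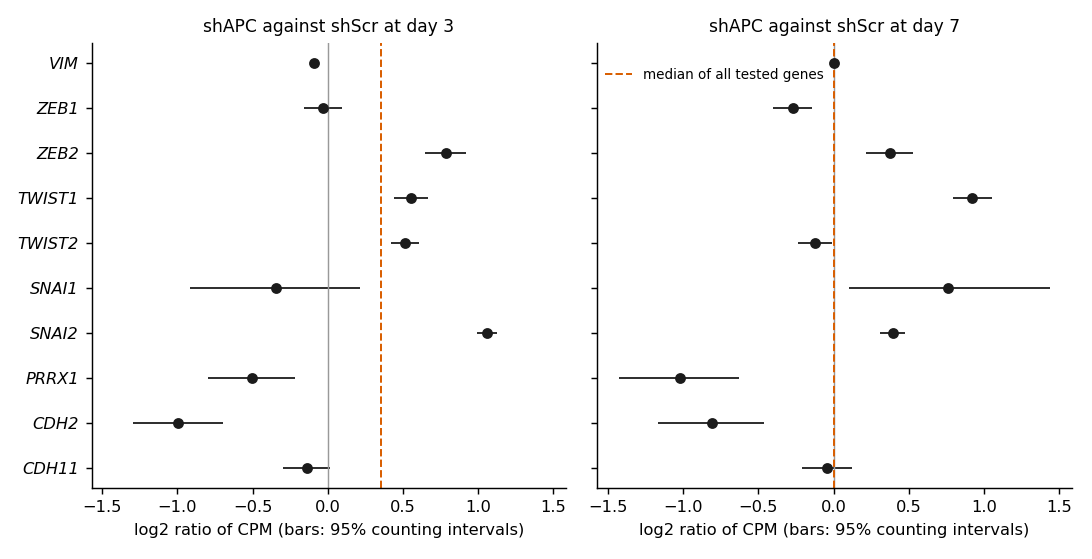
Log2 ratio of CPM, shAPC against shScr, for each gene at day 3 (left) and day 7 (right); bars are 95% counting intervals, the grey line marks 0 and the dashed line the median of all tested genes (0.35 at day 3, 0.00 at day 7). SNAI2, ZEB2 and TWIST1 lie to the right at both days and CDH2 and PRRX1 to the left.

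The members were also compared between days. In shScr, 0 of 10 members were 2-fold apart in either direction, against 2.01% of 13994 tested genes higher and 2.12% lower at day 7. ZEB1 had an interval above 0 at 0.33 (0.21 to 0.45), against 26.9% of genes, and it turned to -0.36 after thinning to 2000 UMIs and to -0.19 with the mean over cells. VIM, TWIST1, SNAI1 and CDH2 had intervals below 0, against 19.6% of genes, with TWIST1 at -0.29 (-0.42 to -0.15). In shAPC also, 0 of 10 were 2-fold apart, against 1.72% of 14446 genes higher and 8.56% lower. SNAI2 at -0.67 (-0.74 to -0.61), TWIST2 at -0.62 (-0.72 to -0.51), PRRX1 at -0.76 (-1.17 to -0.36), ZEB2 at -0.31 (-0.45 to -0.18) and VIM had intervals below 0, against 52.9% of genes, and CDH11 at 0.18 (0.01 to 0.35) above 0, against 9.48%. The gene median was 0.04 in shScr and -0.31 in shAPC. Relative to it, 0 members were 2-fold apart in either comparison, against 1.82% of genes higher and 2.34% lower in shScr and 3.68% higher and 4.27% lower in shAPC. The 2 comparisons over time use the same libraries as those of shAPC with shScr, so a high value in shAPC day 3 enters both.

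Other genes of the switch were read from lists that hold no member. Of 12 other regulators of the transition, 10 could be compared. The counts for this and the following lists stand against 58.9% of all tested genes with intervals above 0 and 8.67% below at day 3, and 23.7% above and 27.2% below at day 7. At day 3, 6 of the regulators had intervals above 0 and 0 below, and at day 7, 2 above and 3 below, so the shares above 0 lay near those of all genes. HMGA2, a chromatin architectural protein that promotes SNAI1 and TWIST1, was the most abundant at 140.1, 177.1, 140.7 and 105.6 CPM, with ratios of 0.34 (0.29 to 0.39) and -0.41 (-0.48 to -0.35). SOX4 was at 23.9, 28.5, 23.3 and 49.2 CPM, with ratios of 0.25 (0.12 to 0.38) and 1.07 (0.94 to 1.21). FOXC2 was at 28.8, 31.7, 31.6 and 21.6 CPM, with ratios of 0.14 (0.02 to 0.26) and -0.55 (-0.70 to -0.40).

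The epithelial gatekeepers oppose the factors above. Of 11, 7 had 3 or fewer UMIs in every library, and GRHL2, OVOL2 and MIR200CHG had 0 in all. KLF5, a factor of proliferating crypt cells, was the only 1 with enough UMIs to compare, at 3.37, 5.98, 4.87 and 2.95 CPM. EHF had 3, 13, 4 and 5 UMIs and GRHL1 had 4, 9, 5 and 4. Of 18 epithelial junction genes, 8 had 3 or fewer UMIs in every library and 9 could be compared. Of these, 5 had intervals above 0 and 1 below at day 3, and 1 above and 4 below at day 7, and the share above 0 at day 3 lay near that of all genes. The scaffold gene TJP1, also used by mesenchymal cells, was at 36.9, 32.0, 51.5 and 36.6 CPM, and the desmosomal plaque gene PKP2 was at 14.8, 19.6, 19.3 and 27.8.

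The catenins that tie cadherins to actin were abundant in all libraries. CTNNA1 (alpha-catenin) was at 115.3, 136.0, 112.5 and 97.9 CPM and CTNNB1 (beta-catenin) at 83.1, 86.8, 83.4 and 64.0. VCL (vinculin) was at 93.9, 117.2, 76.0 and 68.2. Of 11 cadherin partners, 9 could be compared: 4 had intervals above 0 and 1 below at day 3, and 0 above and 7 below at day 7, where 27.2% of all genes lay below. Among 12 filament partners, LMNA (nuclear lamin) led at 307.8, 407.0, 243.0 and 188.6 CPM, followed by the linker PLEC at 224.5, 257.6, 162.8 and 172.2 and the keratin KRT7 at 54.2, 87.1, 69.9 and 67.5. In this list 8 of 10 intervals lay above 0 and 0 below at day 3, against 58.9% and 8.67% of all genes, and at day 7, 4 of 9 lay above and 2 below, against 23.7% and 27.2%.

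Transforming growth factor beta (TGF-beta) is a strong inducer of the member factors. Of 16 genes of this input, 10 had intervals above 0 and 4 below at day 3, where the share above lay near the 58.9% of all genes, and 7 above and 6 below at day 7. TGFBI, which encodes a matrix protein induced by the pathway, was at 231.7, 337.1, 216.5 and 423.3 CPM, with ratios of 0.54 (0.50 to 0.58) and 0.97 (0.92 to 1.01). INHBA, which encodes the activin A subunit, was at 90.0, 233.8, 59.3 and 99.2 CPM, with ratios of 1.38 (1.32 to 1.43) and 0.74 (0.66 to 0.83). TGFB3 was at least 2-fold higher at both days from few molecules, with 10, 24, 6 and 24 UMIs and ratios of 1.45 (0.33 to 2.68) and 2.13 (0.81 to 3.72). Of 24 mesenchymal effector genes, 13 had intervals above 0 and 8 below at day 3, against 58.9% and 8.67% of all genes, and 11 above and 8 below at day 7, against 23.7% and 27.2%. Their median ratio was 0.09 at day 3, below the 0.35 of all tested genes, and 0.04 at day 7.

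COL1A2 differed most at day 7 among the matrix genes named, with a ratio of 0.36 (0.33 to 0.38) at day 3 and 1.18 (1.16 to 1.21) at day 7, while COL1A1 was at 0.07 (0.06 to 0.09) and 0.68 (0.66 to 0.70). FN1 was at -0.17 (-0.18 to -0.16) and -0.16 (-0.17 to -0.14). The smooth muscle gene ACTG2 was at least 2-fold higher in shAPC at both days, at 1.26, 2.63, 2.34 and 6.82 CPM, with ratios of 1.07 (0.56 to 1.59) and 1.54 (1.15 to 1.95). ACTA2, the actin of smooth muscle and myofibroblasts, was at 40.7, 71.8, 37.1 and 46.4 CPM.

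Within libraries, the factors were not confined to a shared set of cells as far as these counts can show. For the 36 pairs of members other than VIM, the number of cells with both was set against the product of their shares. After thinning to 2000 UMIs, 4 pairs had at least 5 cells by that product in every library, each with SNAI2, and 0 of them exceeded the product in all 4 libraries. After thinning to 5000 UMIs, 15 pairs could be read, and their ratio of observed to product ran from 0.43 to 1.59. ZEB1 with ZEB2 was the only pair above the product in all 4 libraries, at 1.21 to 1.48 times, and ZEB1 with SNAI2 the only pair below it in all 4, at 0.83 to 0.96 times. These ratios describe cells of single libraries and rest on sparse counts.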

How the data were processed

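Single-cell RNA was profiled in 4 libraries, 1 per group. The authors aligned reads to hg38 and counted UMIs with Cell Ranger; the deposited matrices hold raw whole-number UMI counts per gene and barcode, and the file headers name Cell Ranger 3.0.2 and 3.0.0. The authors' later imputation and batch steps were not applied here. Whether counting used strand is not given in the sources used here, so reads of VIM, ZEB1 and ZEB2 and of their antisense genes may not be separable. From the counts, barcodes were kept if they had no fewer than 200 genes and 500 UMIs and less than 5% mitochondrial UMIs, UMIs were summed per library and divided by the library total (CPM). No doublet caller was run and doublets were not removed. Intervals are exact Poisson for CPM, exact binomial (Clopper-Pearson) for shares, and exact conditional binomial for ratios, all at 95%. Genes with at least 20 UMIs in the 2 libraries compared form the background. Cells were thinned without replacement to 1000, 2000 or 5000 UMIs (seed 1). With 1 library per group no test was run. Scaling by TMM (edgeR 4.0.16) and size factors (DESeq2 1.42.0), both in R 4.3.3, other filters and equal weighting of cells were alternatives. Python 3.11.15, numpy 2.4.6, scipy 1.17.1 and pandas 2.3.3 were used, and the ratio script was tested on simulated data. Seed matches were searched on GENCODE 44 canonical 3′UTRs of hg38, and RefSeq gave all 5 microRNA sequences sought.

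The members and gene lists were chosen with earlier results of these data known. Named genes are all members, APC, the 3 most abundant genes of each other list, and genes at least 2-fold apart in 1 direction at both days with at least 20 UMIs in each comparison, plus the 5 genes most alike to VIM across cells. Of the lists, some genes that this rule names are not reported here. The few genes outside this rule are single markers or list members at 0 or named as chosen later.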

Additional observations from a re-analysis of the deposited data

Results flagged for a closer look

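TWIST2 was the only member whose counting interval for shAPC against shScr lay above 0 at one day and below 0 at the other. Its log2 ratio was 0.51 at day 3 and -0.12 at day 7, from 43.9 and 62.7 CPM at day 3 and 44.6 and 40.9 CPM at day 7 in shScr and shAPC. The 2 shScr libraries were alike, so the opposite signs rest on the shAPC libraries. Relative to the median of all tested genes the day 3 ratio was 0.16, and -0.07 after thinning to 2000 UMIs. The difference between the days was not tested.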

How the results depend on the processing

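No paired analysis was possible because the groups of a comparison hold 1 library each and so share fewer than 2 replicate numbers, and no library could be left out. Under 11 other scalings, cell filters and weightings, the sign of the ratio of shAPC to shScr held for 8 of 10 members at day 3 and 6 of 10 at day 7, wherever at least 20 UMIs remained. The members that held at both days were ZEB2, TWIST1, TWIST2, SNAI1, SNAI2 and PRRX1. With equal weight for each cell (mean of CPM), ZEB1 and CDH2 turned to 0.10 and 0.42 at day 7, ZEB1 and CDH11, whose intervals held 0, to 0.33 and 0.21 at day 3, and ZEB1 over time in shScr to -0.19, or to -0.36 after thinning to 2000 UMIs; the cause was not tested.

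The member median at day 3 was -0.44 with TMM, -0.43 with DESeq2 factors, -0.17 without mitochondrial and ribosomal genes in the totals, and 0.27 with equal weight for each cell. At day 7 it was 0.075 with all barcodes, 0.076 with a mitochondrial limit of 10% and 0.085 with equal weight. Over time in shAPC it was 0.11 with TMM and 0.11 with DESeq2 factors. Members at least 2-fold higher at day 3 numbered 0 under both factor scalings, the smaller totals, thinning and equal weight, and those at least 2-fold lower numbered 1 (CDH2) under all of these but thinning, and also with all barcodes, the 10% limit and without shared barcodes. At day 7, 1 member (TWIST1) was at least 2-fold higher with all barcodes, the 10% limit and equal weight, and 0 were 2-fold lower with smaller totals, without shared barcodes, after thinning and with equal weight. Over time in shAPC, 1 (CDH2) was 2-fold higher with equal weight.

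Over all genes, the count at least 2-fold apart at day 3 (1625) was 852 with a minimum of 100 UMIs, 251 with 20 CPM and 528 with a pseudocount of 1 CPM and no minimum. In the same order it was 448, 129 and 299 at day 7, 190, 57 and 115 over time in shScr, and 859, 341 and 603 in shAPC. TMM moved the share of higher calls from 91.9% to 65.7% at day 3 and from 16.8% to 46.2% over time in shAPC, and DESeq2 factors moved it to 67.4% and 46.2%. Depth limits SNAI1, with 33 to 68 UMIs per library, and the per-cell shares in shScr day 7.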

Other observations

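The barcodes that the filter removed hold separate RNA of the same 4 libraries, and the member ratios were read there after the data had been seen. The log2 ratio of shAPC to shScr among them was -2.02 at day 3 and -1.26 at day 7 for CDH2, from 15 and 52 UMIs at day 3 and 55 and 66 at day 7 in shAPC and shScr. TWIST1 was at 0.74 and 1.60, SNAI2 at 0.79 and 0.60, and ZEB2 at 0.43 and 0.02. PRRX1 was at -0.04 and -0.62. These barcodes come from the same cultures as the kept cells and are no replicate of them.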
